A study of Mus musculus with 3 samples.

Results

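Arg1, Nos2, Chi3l3 and Retnla were examined as 4 of 19091 genes in Drop-seq libraries of mouse liver after irreversible electroporation (IRE), in which electric pulses kill the cells of a confined area. Drop-seq captures single cells in droplets with barcoded beads, and each captured 3′ end of a transcript is counted once as a unique molecular identifier (UMI). The 4 genes were taken by name and were chosen by their measured levels by library and cell class and their co-detection in these same libraries, so that these values are given as a description. One library was made for each of 3 conditions in C57BL/6 mice (C57BL/6J in the methods), from control livers and from livers 1 day and 7 days postinjury (p.i.), here called day 1 and day 7, and each was pooled from several livers, so that no test across animals was possible. According to the labels IRE was given as 8 pulses of 50 ms at 75 V with intervals of 1 s, whereas the methods of the study state a lower voltage. The labels describe the control as sham surgery with tissue taken after 1 day, and the methods state that a matching area without injury was used. Tissue of every condition was taken with a 4 mm punch and digested enzymatically.

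Arginine is a substrate for competing enzymes. Arginase, encoded by Arg1 and Arg2, splits it into urea and ornithine, from which polyamines and proline are made, whereas inducible nitric oxide synthase, encoded by Nos2, turns it into nitric oxide and citrulline. In the liver Arg1 is also the last enzyme of the urea cycle of hepatocytes, together with Cps1, Otc, Ass1 and Asl. In mouse myeloid cells interleukin-4 and interleukin-13 signal through STAT6 and induce Arg1 with Chi3l3 (the chitinase-like lectin Ym1, named Chil3 in RefSeq) and Retnla (the secreted resistin-like molecule alpha, or FIZZ1), a state called alternative activation. Nos2 is induced by interferon gamma and bacterial products, a state called classical activation.

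The analysis took barcodes with 200 or more detected genes, 10386 in control, 9253 on day 1 and 5624 on day 7, with 8013800, 6107866 and 3058967 UMIs. The labels estimate 1000 cells per library. No cell call was made, so that barcodes with only free RNA were not removed, and droplets with more than 1 cell were kept. Median depth ranged from 456.5 to 595 UMIs per barcode. The libraries differed beyond the conditions. Mitochondrial genes took 20.5% of UMIs in control, 21.7% on day 1 and 4.10% on day 7, and hepatocyte markers took 0.179%, 3.02% and 0.0395%. Between 1.85% and 6.03% of kept barcodes had a sequence that was also found in another library, and where a library ratio of the 4 genes moved outside its interval without them both values are given. All levels below are UMI counts per 1000000 UMIs (CPM) of the kept barcodes of the library or class, and all intervals are 95% intervals that cover counting error only.

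Barcodes were sorted into gates by marker genes that did not include the 4 genes. A barcode took the class of which it held most different markers, at least 2, a rule that was chosen after the data had been seen. The gates are named here by their markers. The Ccl2 gate, called Ccl2 macrophage in the plots, rests on Ccl2, Ccl7, Ccl12, Ms4a7, Thbs1 and Inhba, and the Gpnmb gate, called Gpnmb macrophage there, on Gpnmb, Trem2, Mmp12, Atp6v0d2, Fabp5 and Mmp13. Of the 10 leading genes of a gate by fold, 7 to 8 were own markers in the neutrophil gates and 5 to 7 in the monocyte and Kupffer gates. In control, on day 1 and on day 7 the Ccl2 gate had 5, 3 and 5. The Gpnmb gate had 5, 0 and 3 and the endothelial gate 5, 7 and 3. Apart from S100a8 and S100a9, counted here as own markers of the neutrophil gate but not used to set it, barcodes entered a gate by these same markers. Such counts therefore do not test which cells a gate holds. The leading genes of the monocyte gate on day 1 also held the immunoglobulin genes Igkv10-96, Igha and Igj. A barcode with at least 10% of its UMIs from hepatocyte markers entered the hepatocyte gate, although at most 1 of these markers stood among the 10 leading genes of that gate by fold. Between 23.1% and 30.1% of barcodes stayed unassigned. The composition differed widely, with neutrophil gates of 221, 29 and 1653 barcodes, monocyte gates of 1632, 112 and 1306, Kupffer gates of 1578, 2396 and 166, endothelial gates of 1589, 3923 and 79 and Ccl2 gates of 60, 6 and 554 in the 3 libraries in order. In a sum over a library, more cells of a type and more RNA per cell cannot be told apart.

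The 4 genes did not follow one course. Arg1 was higher on day 1 and much higher on day 7, Nos2 was nearly absent until day 7, and Chi3l3 was lower on day 1 and higher on day 7. Retnla was lower than in control on day 1, from 2 UMIs, while its lower level on day 7 did not hold under every barcode filter. Arg1 stood at 131 CPM in control (1048 UMIs), at 368 on day 1 (2250 UMIs) and at 5593 on day 7 (17109 UMIs). The ratio to control was 2.82 (2.62 to 3.03) on day 1 and 42.8 (40.2 to 45.6) on day 7, and without barcodes found in 2 libraries it was 2.42 and 49.5. Arg1 moved from rank 1058 to rank 11 among all genes by UMIs, and was detected in 3.95%, 11.2% and 45.6% of barcodes.

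Nos2 had 2 UMIs in control, 4 on day 1 and 83 on day 7, which gives 0.25, 0.655 and 27.1 CPM. The ratio on day 1 was 2.62 (0.376 to 29.0), which counting error does not separate from no difference. On day 7 it was 109 (29.2 to 913), with a control value that rests on 2 UMIs. On day 7 Nos2 was found in 73 barcodes, or 1.30%, and no barcode held more than 3 UMIs.

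Chi3l3 stood at 78.2 CPM in control (627 UMIs), at 11.6 on day 1 (71 UMIs) and at 1145 on day 7 (3504 UMIs). Its ratio to control was 0.149 (0.115 to 0.190) on day 1 and 14.6 (13.4 to 15.96) on day 7. Among the 4 genes it had the highest ratio of day 7 over day 1, at 98.5 (77.9 to 126). Counting error did not separate this from Nos2, at 41.4 (15.6 to 156).

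Retnla had 90 UMIs in control, 2 on day 1 and 9 on day 7, or 11.2, 0.327 and 2.94 CPM. Its ratio to control was 0.0292 (0.00348 to 0.108) on day 1 and 0.262 (0.116 to 0.520) on day 7. The second ratio changed with the barcode filter. Among barcodes with at least 500 detected genes it turned to 2.17 (0.478 to 8.09), from 4 UMIs on day 7 against 8 in control. That interval includes no difference and overlaps the one above. The same filter gave 0.205 on day 1, outside the interval above, from at most 2 UMIs on day 1 against these 8.

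**Figure D1:**
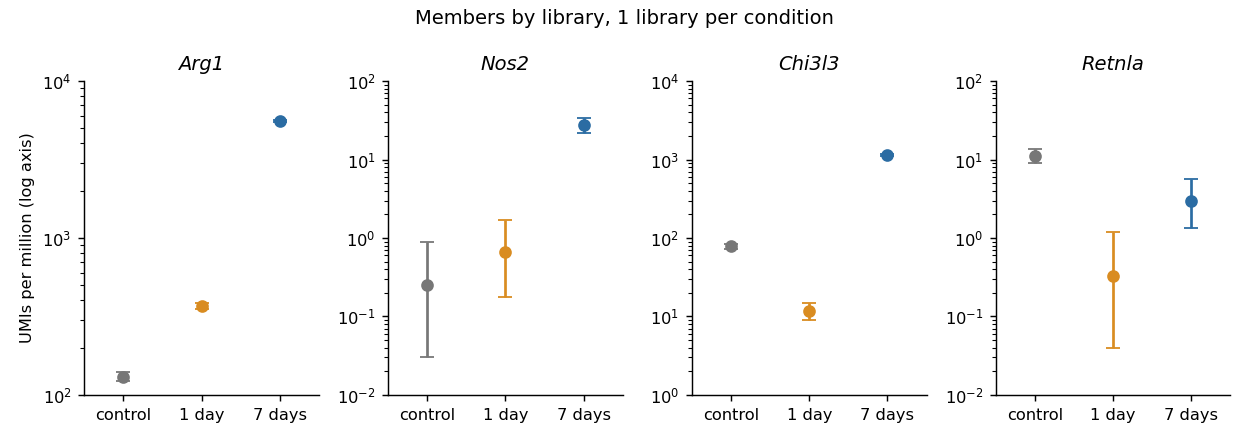
Each panel plots 1 gene, with the library on the x axis and CPM on a log y axis whose range differs between panels. Points are the single library of each condition and bars are exact Poisson 95% intervals. Arg1 and Chi3l3 reach 5593 and 1145 on day 7, Nos2 reaches 27.1, and Retnla is highest in control at 11.2.

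The promoters of the genes that could be matched in the RefSeq table are shown here, because Retnla and its neighbouring paralog Retnlg differed in course, and because Chi3l3 has a close copy, Chi3l4 (Chil4). The sequences are the 250 bases before the transcription start in build GRCm38.p6. Chil3 lies on the minus strand at chr3:106167565-106167814 and Chil4 on the minus strand at chr3:106219480-106219729. Retnla lies on the plus strand at chr16:48842359-48842608 and Retnlg on the plus strand at chr16:48872358-48872607. Capitals mark a STAT6-type motif, the letters TTC and GAA with any 4 bases between them, which reads the same on both strands.
Retnla: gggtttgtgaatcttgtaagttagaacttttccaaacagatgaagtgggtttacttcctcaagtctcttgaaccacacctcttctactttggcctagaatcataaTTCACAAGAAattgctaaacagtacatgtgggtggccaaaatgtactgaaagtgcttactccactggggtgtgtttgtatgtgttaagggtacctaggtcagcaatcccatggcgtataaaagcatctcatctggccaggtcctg
Retnlg: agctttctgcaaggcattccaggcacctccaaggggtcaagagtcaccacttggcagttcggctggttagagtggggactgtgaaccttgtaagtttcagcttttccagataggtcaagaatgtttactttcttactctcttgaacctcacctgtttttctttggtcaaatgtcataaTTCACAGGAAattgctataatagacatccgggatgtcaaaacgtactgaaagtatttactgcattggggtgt
Chil3: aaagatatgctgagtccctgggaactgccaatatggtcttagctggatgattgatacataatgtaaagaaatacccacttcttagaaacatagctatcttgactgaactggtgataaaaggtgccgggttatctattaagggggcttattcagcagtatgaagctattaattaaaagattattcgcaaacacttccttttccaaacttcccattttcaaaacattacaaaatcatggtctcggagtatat
Chil4: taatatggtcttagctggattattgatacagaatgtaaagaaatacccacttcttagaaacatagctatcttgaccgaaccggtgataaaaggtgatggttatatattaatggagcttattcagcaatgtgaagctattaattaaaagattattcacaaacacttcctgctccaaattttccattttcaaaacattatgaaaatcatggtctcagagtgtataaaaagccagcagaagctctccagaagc
The motif stood once in Retnla, from 145 to 136 bases before the start, and once in Retnlg, from 72 to 63 bases before the start. It was not found in the windows of Chil3 and Chil4. Of 32851 promoter windows in the table, 1923 hold it, or 5.85%. In a local alignment Retnla and Retnlg shared 138 of 175 bases (78.9%) and Chil3 and Chil4 shared 201 of 220 bases (91.4%). The last 500 bases of the Chil3 transcript share 77 of 451 windows of 50 bases with Chil4, so that part of the UMIs of Chi3l3 could be split with its copy. No such window was shared between Retnla and Retnlg, between Arg1 and Arg2 or between Nos2 and Nos1 or Nos3.

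The paralogs did not all follow the same course. Arg2, the mitochondrial arginase, had 44, 33 and 333 UMIs in control, on days 1 and 7, with a ratio of 19.8 (14.4 to 27.8) on day 7. The neutrophil gate held 49.5% of Arg2 UMIs on day 7, at 193 CPM (165 to 225), against 102 (58.2 to 165) in that gate of control. Nos3, the endothelial synthase, had 70, 106 and 6 UMIs, with a ratio of 0.225 (0.0797 to 0.514) on day 7, and Nos1, the neuronal synthase, had at most 1 UMI in any library. In the endothelial gate Nos3 was at 51.1 CPM (38.4 to 66.7) in control, at 27.8 (21.5 to 35.4) on day 1 and at 61.6 (12.7 to 180) on day 7, the last from 3 UMIs, which cannot show a difference of this size. That gate had 15.3%, 42.4% and 1.40% of barcodes in the 3 libraries.

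Chi3l4 was at 0, 1 and 9 UMIs, which is 7.86-fold higher on day 7 than a floor of 3 counts in control, and the lower bound of its ratio was 5.17. Chi3l1, a chitinase-like gene of neutrophils, had a ratio of 0.351 on day 1 and of 7.86 (5.78 to 10.8) on day 7, while within the neutrophil gate it was at 204 CPM (139 to 287) in control and 135 (111 to 162) on day 7. Retnlg, a resistin-like gene of neutrophils, stood at 343, 42.4 and 4422 CPM, with ratios of 0.123 (0.108 to 0.140) and 12.9 (12.4 to 13.4). The neutrophil gate held 72.2% of Retnlg UMIs on day 7. Within that gate the level of Retnlg was 9686 in control, 2498 on day 1 and 11433 on day 7, with intervals of 9206 to 10185 in control and 11208 to 11662 on day 7. Retnlb had 3 UMIs in all.

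In control, Arg1 was highest in the hepatocyte gate, with 1439 CPM (1150 to 1780) over 16 barcodes, and these barcodes carried 8.11% of all Arg1 UMIs. The Gpnmb gate held 322 Arg1 UMIs, or 30.7%, at a level of 423 (378 to 472), and 20.1% of its barcodes had Arg1. The Ccl2 gate stood at 838, but 38 of its 44 UMIs lay in 2 of its 60 barcodes. Neutrophil, Kupffer and monocyte gates had 108 (63.0 to 173), 73.6 (60.6 to 88.5) and 51.8 (39.1 to 67.2), against 37.9 (27.0 to 51.6) in the endothelial gate and 12.3 (3.35 to 31.5) in the T cell gate, where arginase is not expected and free RNA can supply the counts. The intervals of the monocyte and endothelial gates overlapped. A single unassigned barcode held 94 of the 1048 Arg1 UMIs of the library, and the sequence of that barcode was also found in another library.

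On day 1 most Arg1 was found with hepatocyte RNA. The hepatocyte gate had 259 barcodes and held 1154 Arg1 UMIs, or 51.3% of the library, at 1880 CPM (1773 to 1991), or 1753 without barcodes found in 2 libraries. Cps1, the entry enzyme of the urea cycle, had 103 and 1444 UMIs in control and on day 1, a ratio of 18.4 (15.1 to 22.7). Outside the hepatocyte gate Arg1 stood at 189 in the endothelial gate, 134 in the Kupffer gate and 112 in the T cell gate, and Cps1 stood at 140, 123 and 124 there. The T cell gate thus had as much Cps1 as the Kupffer gate, at median depths of 485 and 546.5 UMIs per barcode. The monocyte gate had 488 (336 to 685), of which 18 of 33 UMIs lay in 1 barcode. Of all barcodes of the library with Cps1, 238 of 847 also had Arg1 (28.1%), against 9.45% of barcodes without Cps1. These shares include the hepatocyte gate, where 183 of 259 barcodes had Cps1 and 203 had Arg1. They are at the depth of each barcode, and the median of that gate was 1362 UMIs. Without the 1 in 4 barcodes that had the highest shares of hepatocyte markers, the ratio of Arg1 to control was 1.51 (1.36 to 1.68).

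On day 7 Arg1 was found without hepatocyte RNA. No barcode fell into the hepatocyte gate, and Cps1 and Otc had 2 and 3 UMIs in the library, against 17109 for Arg1. The Ccl2 gate had the highest level, 13477 CPM (13070 to 13892), where Arg1 ranked 5 among all genes and was detected in 80.5% of 554 barcodes. The unassigned barcodes followed with 7349 (7166 to 7535), then the monocyte gate with 4806 (4653 to 4962) and the Gpnmb gate with 4712 (3910 to 5631). The last pair did not differ beyond counting error, with a ratio of 0.981 (0.811 to 1.18). The neutrophil gate had 3137 (3019 to 3258).

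Gates of non-myeloid cells, which should lack Arg1, gave levels to set beside these. Endothelial barcodes had 1048 (780 to 1377) and T cell barcodes 714 (492 to 1003), at median depths of 516 and 420.5 UMIs, and 17 of the 33 T cell UMIs lay in 1 barcode. The NK gate, of 19 barcodes, had 3291 (2150 to 4822), as high as the neutrophil gate, with 17 of its 26 UMIs in 1 barcode. The cDC gate, of dendritic cells, had 193 (23.4 to 699) from 2 UMIs in 16 barcodes. The Kupffer gate, with 1146 (966 to 1349), was not separated from the endothelial gate, at a ratio of 1.09 (0.789 to 1.54). The ratio to the endothelial gate was 12.9 (9.77 to 17.3) for the Ccl2 gate, 4.59 (3.48 to 6.17) for the monocyte gate and 2.99 (2.27 to 4.03) for the neutrophil gate. Markers of other classes moved with these values. The markers of the Ccl2 gate summed to 3020 CPM in the neutrophil gate on day 7 against 184 in control, to 3123 against 181 in the monocyte gate, and to 909 and 986 in the T cell and endothelial gates on day 7. Among barcodes with no marker of any other class, an alternative chosen after seeing the data, the Ccl2 gate had 16331, the monocyte gate 4193, the neutrophil gate 1804 (1529 to 2115) and the endothelial gate 650 (177 to 1665, from 4 UMIs).

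Against the same gate of control, Arg1 was higher on day 7 in 8 gates beyond counting error, while the cDC gate had 9.46 (0.856 to 66.0). The ratio to control was 92.9 (71.3 to 123) in the monocyte gate, 29.0 (18.1 to 49.9) in the neutrophil gate, 16.1 (11.96 to 22.2) in the Ccl2 gate, 15.6 (12.1 to 20.1) in the Kupffer gate and 11.1 (8.96 to 13.8) in the Gpnmb gate. It was also 27.7 (17.9 to 43.0) in the endothelial gate, 58.1 (20.7 to 226) in the T cell gate and 245 (61.4 to 2131) in the NK gate. The T cell and NK ratios rest on 4 and 2 UMIs in control, and on day 7 on the single barcodes with 17 UMIs given above. The monocyte ratio stood above the endothelial one, but its interval overlapped those of the T cell and NK gates. No other myeloid ratio stood above the endothelial one beyond counting error. The part of free RNA in these ratios was not tested. By UMIs, the Ccl2 gate held 24.3% of the Arg1 of the library, the monocyte gate 21.9%, the neutrophil gate 15.7% and unassigned barcodes 35.9%.

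**Figure D2:**
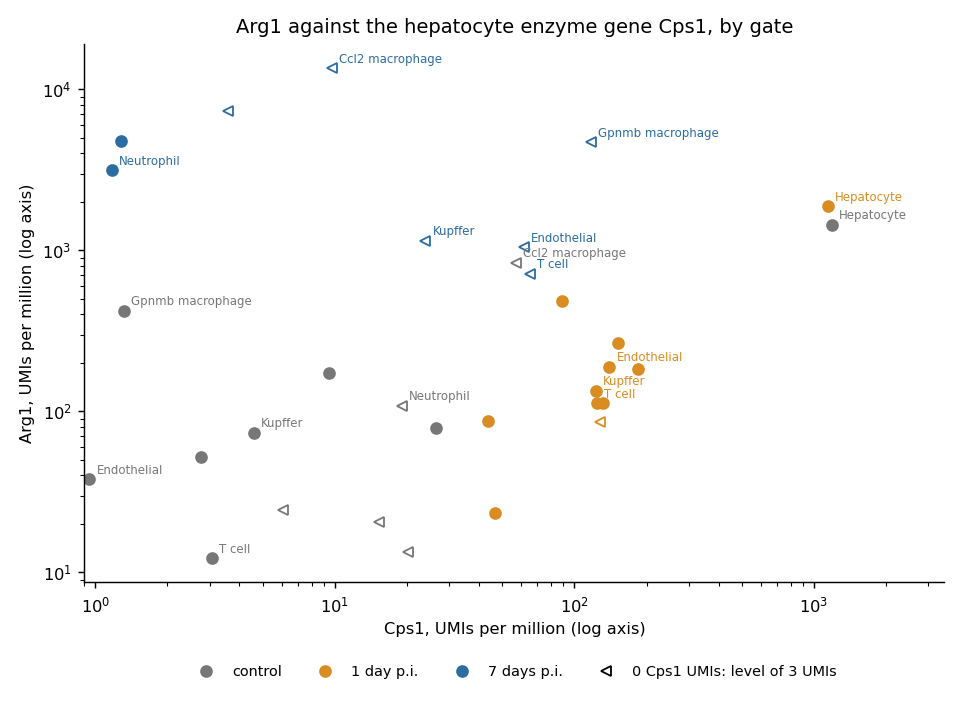
Each point is a gate in 1 library with at least 20000 UMIs, with Cps1 on the x axis and Arg1 on the y axis, both in CPM on log axes. Colours give the library, and open triangles mark gates with 0 Cps1 UMIs, drawn at the level of 3 UMIs. On day 1 the gates lie along Cps1 levels up to 1138 in the hepatocyte gate, whereas on day 7 Arg1 reaches 13477 in the Ccl2 gate without a Cps1 UMI.

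Arg1 UMIs were concentrated in few barcodes. On day 7 632 barcodes with at least 10 Arg1 UMIs (11.2% of barcodes) held 64.1% of all Arg1 UMIs. Such barcodes made up 30.9% of the Ccl2 gate, 13.9% of unassigned barcodes, 10.3% of the monocyte gate and 5.38% of the neutrophil gate, against 0 of 79 endothelial, 1 of 96 T cell and 1 of 19 NK barcodes, the last being 5.26%. The control library had 11 such barcodes and the library on day 1 had 42, of which 35 were in the hepatocyte gate.

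Chi3l3 was found in the same gates as Arg1 on day 7, in other proportions. In control its levels were highest in the neutrophil gate, with 401 CPM (308 to 513), and the monocyte gate, with 360 (325 to 397), which did not differ beyond counting error. The monocyte gate held 62.0% of Chi3l3 UMIs. The Kupffer, Gpnmb, endothelial and T cell gates had between 6.15 and 24.6. On day 1 the monocyte gate had 104 (41.6 to 213) from 7 UMIs, a ratio to control of 0.288 (0.115 to 0.599), and the neutrophil gate had 397 (160 to 819), also from 7 UMIs. Both gates were small at that time, with 1.21% and 0.313% of barcodes against 15.7% and 2.13% in control.

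On day 7 the monocyte gate had the highest level of Chi3l3, 2023 (1924 to 2125), and 43.0% of its barcodes had the gene. Unassigned barcodes had 1171, the Ccl2 gate 1100 (987 to 1224), the neutrophil gate 672 (618 to 729) and the Gpnmb gate 428 (214 to 767). The T cell and endothelial gates had 86.6 (23.6 to 222) and 20.5 (0.520 to 114), from 4 UMIs and 1 UMI, and the Kupffer gate with 127 (72.8 to 207) was not separated from them. The ratio of the monocyte gate to the Ccl2 gate was 1.84 (1.63 to 2.07), the opposite order to that of Arg1, where the ratio of the Ccl2 gate to the monocyte gate was 2.80 (2.68 to 2.93). Within the monocyte gate Chi3l3 was 5.63 times the control level (5.03 to 6.30), and within the neutrophil gate 1.68 times (1.29 to 2.21). In barcodes with no marker of another class the order of the monocyte and Ccl2 gates was no longer separated by counting error, at 1.38 (0.877 to 2.29).

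**Figure D3:**
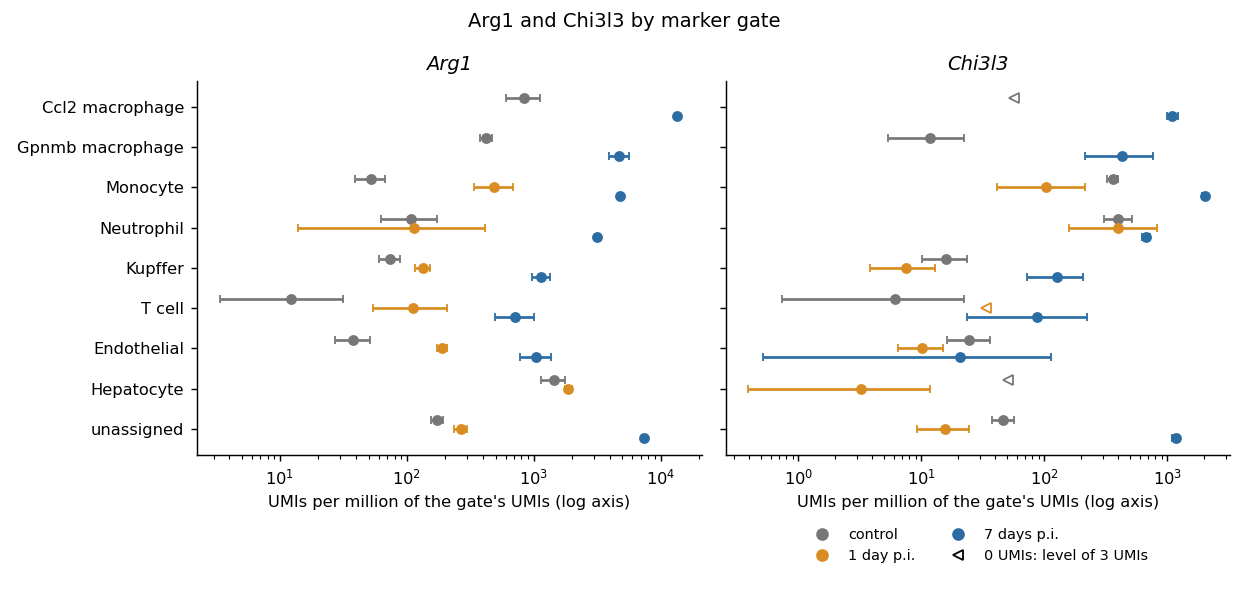
The panels plot Arg1 and Chi3l3 by marker gate (rows) in CPM of the UMIs of the gate on a log x axis. Colours give the library, bars are exact Poisson 95% intervals, and open triangles mark 0 UMIs at the level of 3 UMIs. On day 7 Arg1 is highest in the Ccl2 gate at 13477 and Chi3l3 in the monocyte gate at 2023.

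The 83 Nos2 UMIs of the library on day 7 were spread over myeloid gates. The neutrophil gate had 27 UMIs, or 31.6 CPM (20.8 to 46.0), the Ccl2 gate 8 UMIs, or 25.9 (11.2 to 51.0), and the monocyte gate 18 UMIs, or 23.1 (13.7 to 36.5). Unassigned barcodes held another 27. The 3 named gates did not differ beyond counting error, with a ratio of 1.37 (0.727 to 2.64) between the neutrophil and monocyte gates. T cell and endothelial gates had 0 UMIs, but their totals are so small that 3 UMIs would amount to more than the levels of the myeloid gates.

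Retnla in control came from a handful of barcodes. Of its 90 UMIs, 66 were in unassigned barcodes, 13 in endothelial barcodes and 5 in monocyte barcodes. The 9 barcodes with at least 2 Retnla UMIs, a limit chosen after the values had been seen, held 73 UMIs, or 81.1%, and the 2 highest had 23 and 12. In these 9 barcodes Ccl8, a chemokine, had 22 UMIs, or 3581 CPM against 89.3 in all other control barcodes. The class II genes H2-Eb1 and Cd74 had 5372 against 1648 and 4721 against 1559. The Kupffer gate markers Folr2 and Clec4f went in opposite directions. Folr2 had 6 UMIs, at 977 against 171, and the lectin Clec4f had 1 UMI, at 163 against 947. Chi3l3 had no UMI in these barcodes. Ccl8 itself was lower in the injured libraries, with ratios to control of 0.0356 on day 1 and 0.110 on day 7. The 9 UMIs of Retnla on day 7 lay in 6 barcodes, 2 of them in the neutrophil gate.

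The members were then compared within single barcodes. On day 7 2300 barcodes had none of the 4 genes, 2551 had 1, 763 had 2, 10 had 3 and none had all 4. Of the 73 barcodes with Nos2, 47 also had Arg1, or 64.4% (52.3 to 75.3), against 45.3% of barcodes without Nos2. Median depths were 512 and 456 UMIs. After each barcode had been thinned to 300 UMIs, with 545 shallower barcodes left out, the shares were 23 of 41, or 56.1% (39.7 to 71.5), against 39.2%. The lower bound of that interval then lay just above the share without Nos2. In the monocyte gate 13 of 14 barcodes with Nos2 had Arg1, or 92.9% (66.1 to 99.8), against 43.6%, and thinned 8 of 10 against 36.2%. In the neutrophil gate the numbers were 13 of 25 against 32.3%, and in the Ccl2 gate 5 of 8 against 80.8%. Whether barcodes with both genes hold more than 1 cell was not tested.

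Over all barcodes, thinned to the same depth, Arg1 was as frequent in barcodes with Chi3l3 as in those without. Of 1464 barcodes with Chi3l3 on day 7, 726 had Arg1, or 49.6% (47.0 to 52.2), against 44.2% without Chi3l3, but barcodes with Chi3l3 were deeper, and after thinning the shares were 39.2% and 39.3%. In the monocyte gate the shares were 43.6% and 44.5%, and after thinning 31.8% (27.2 to 36.8) and 38.8%. In the Ccl2 gate they were 73.8% (66.0 to 80.7) and 83.0%, and after thinning 63.7% (53.6 to 73.0) and 75.7%. In the neutrophil gate they were 38.2% and 31.3%, and after thinning 30.3% (24.3 to 36.8) and 25.2%. In control only 12 of 410 barcodes with Chi3l3 had Arg1. Of the 6 barcodes with Retnla on day 7, 3 had Arg1.

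**Figure D4:**
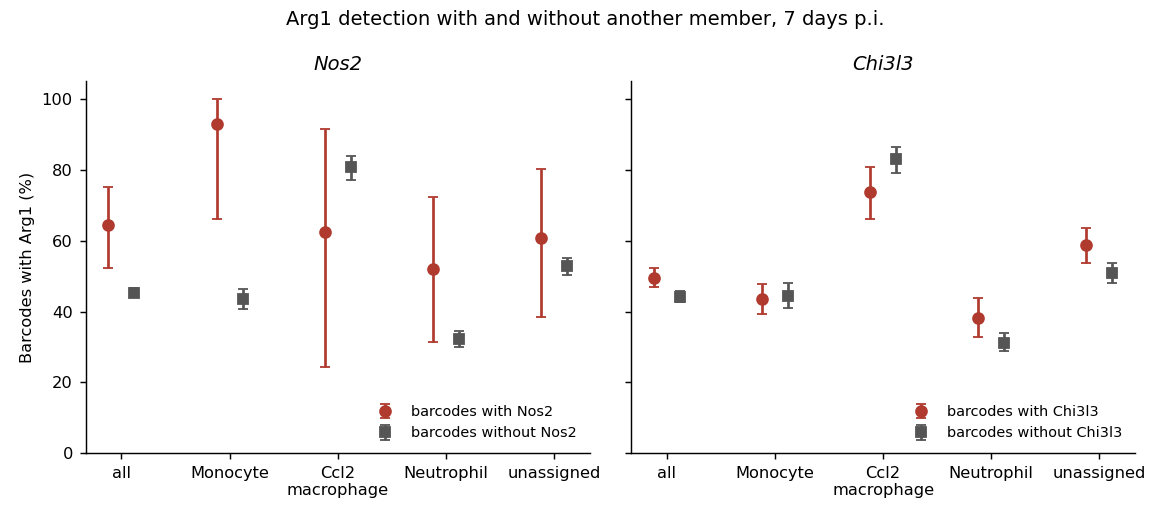
The panels plot the percentage of barcodes with Arg1 on day 7 on the y axis, among barcodes with (circles) and without (squares) Nos2 or Chi3l3, for all barcodes and for 4 gates on the x axis, at the depth of each barcode. Bars are exact binomial 95% intervals. Barcodes with Nos2 in the monocyte gate stand apart at 92.9% against 43.6%, whereas with and without Chi3l3 the monocyte gate has 43.6% and 44.5%.

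Within gates, barcodes were divided by their Arg1 count into 0, 1 to 4, 5 to 9 and at least 10 UMIs, limits chosen after the values had been seen. In the monocyte gate the level of Chi3l3 was 2252 (2109 to 2401), 1763, 2146 and 1563 (1326 to 1830) CPM in these bins, whereas Ccl24, an eosinophil-attracting chemokine, was at 58.2 (37.3 to 86.6), 155, 918 and 548 (412 to 715). Mrc1, the mannose receptor, was at 26.7 (13.3 to 47.7) and 132 (70.2 to 226) in the lowest and highest bin, Pf4, a chemokine, at 89.7 and 2091, and Ccl2 at 710 and 2923. Ly6c2, a marker of classical monocytes, was at 1796 (1669 to 1930) and 1025 (835 to 1245). Nos2 had 1 UMI in 730 barcodes without Arg1 and 11 UMIs in 134 barcodes with at least 10, at 2.42 (0.0614 to 13.5) and 112 (55.7 to 200). Il1b, the gene of interleukin-1 beta, had 1253 (1147 to 1366) and 1066 (872 to 1290).

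In the neutrophil gate Retnlg and Arg2 were lower in the bins with more Arg1, and Chi3l3 and Ptgs2 showed no such order, with Chi3l3 at 656, 735, 456 and 763 and Ptgs2 at 140, 143, 96.1 and 139. Retnlg was at 13339 (13031 to 13652), 10230, 5620 and 4454 (3980 to 4969) over the 4 bins and Arg2 at 226 (188 to 270) and 83.3 (30.6 to 181) in the lowest and highest bin. Ccl2 was at 318 and 2262 and Pf4 at 219 and 2400, so that barcodes of the neutrophil gate with most Arg1 also held most of these transcripts. Nos2 was at 22.4 (11.6 to 39.2) and 125 (57.1 to 237). Median depth was 782 UMIs in the highest bin against 429 in barcodes without Arg1. The part of mixed barcodes in the Arg1 of the neutrophil gate was not tested. In the Ccl2 gate Ccl24 was at 51.9 (10.7 to 152) and 866 (699 to 1061) and Ly6c2 at 675 (480 to 923) and 186 (114 to 288) in the lowest and highest bin.

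**Figure D5:**
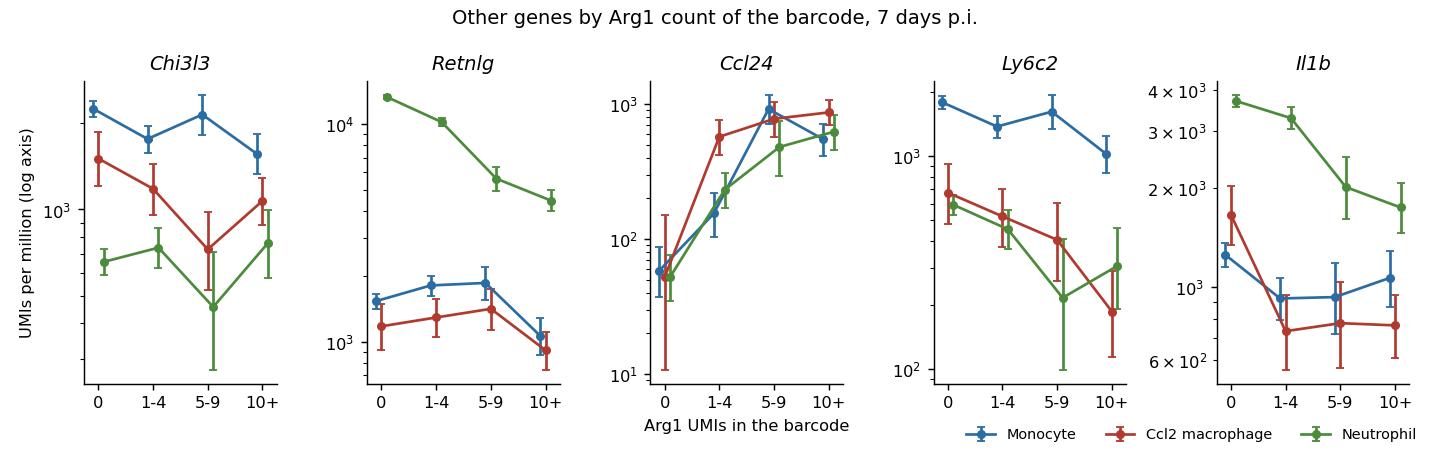
Each panel plots 1 gene on day 7, with the Arg1 count of the barcode in 4 bins on the x axis and CPM on a log y axis whose range differs between panels. Colours give 3 gates and bars are exact Poisson 95% intervals. Ccl24 is higher in the bins with Arg1 than in those without in all 3 gates, at 548 in the highest against 58.2 in the lowest bin of the monocyte gate, and Retnlg is lower in the neutrophil gate, from 13339 to 4454.

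Other genes were ranked by the similarity of their pattern to that of each member, as Pearson r of log2 levels over 34 sums of a gate in a library with at least 20000 UMIs, which share their libraries and depth, so that r is a description. The genes most like Arg1 were Bnip3 (r = 0.86), Ftl1 (0.83), F10 (0.82), Gm10116 (0.82) and Gapdh (0.81). The genes most like Chi3l3 were Sirpb1c (r = 0.93), Trem3 (0.90), 1810033B17Rik (0.90), Ccr1 (0.89) and Ltb4r1 (0.88). For Retnla, with 101 UMIs in all, they were Tff1 (0.71), Ighg3 (0.61), Gm15987 (0.58), Ubxn11 (0.54) and G530011O06Rik (0.52). Between the members r was 0.63 for Arg1 and Chi3l3 and -0.13 for Arg1 and Retnla. Nos2 was not ranked, because it had 89 UMIs.

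The wider pathways were counted over genes with at least 50 UMIs in both libraries together and a ratio of at least 2 in either direction. Over all genes, 12.2% were higher and 5.86% lower by this rule on day 1, and 8.79% were higher and 21.8% lower on day 7. The median log2 ratio over all genes was 0.04 on day 1 and -0.21 on day 7, so that a list median on day 7 is read relative to -0.21. In the urea cycle list 6 of 6 counted genes were higher on day 1, with a median log2 ratio of 3.16. On day 7 Arg1 alone was higher, Cps1 and Otc were lower at 0.0509 and 0.116 times control, and Ass1 and Asl stood at 1.67 (1.26 to 2.20) and 1.81 (1.07 to 3.04).

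Of 18 counted genes of arginine transport and use, 3 were higher and 1 lower on day 1, and 3 were higher and 4 lower on day 7, with a median log2 ratio of 0.31. The 3 higher genes were Arg2, Gch1, which makes the tetrahydrobiopterin cofactor of nitric oxide synthases, at 6.39 (5.31 to 7.73), and Azin1, an inhibitor of antizyme, at 2.41 (2.05 to 2.83). The lower genes were Nos3, Ddah1 and Ddah2, which break down methylated arginines, at 0.215 and 0.186, and Gatm, which uses arginine for creatine synthesis, at 0.330 (0.266 to 0.406). The ornithine decarboxylase gene Odc1 stood at 1.46 (1.11 to 1.91). Gch1 was at 142 in the monocyte gate, 137 in the neutrophil gate and 133 in the Ccl2 gate, against 34.2 in the monocyte gate of control.

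Few ligands of the type 2 response were seen. Il4 had 17, 10 and 0 UMIs in the 3 libraries. On day 7 it was 2.16-fold lower than in control with its 0 set to the floor of 3 UMIs. The interval of its ratio was 0 to 0.635. Il13 was not among the genes counted in these libraries. Il33, an alarmin, had 107, 56 and 3 UMIs, and 55 of the 107 in control were in the mesenchymal gate, which had 460 barcodes in control and 3 on day 7. Of 6 counted type 2 genes, the receptor chains Il4ra and Il13ra1 were higher on day 7, at 2.72 (2.39 to 3.10) and 2.68 (2.31 to 3.10), Il33 was lower, and the transducer Stat6 stood at 1.66 (1.45 to 1.89). On day 1 none was higher and 1 was lower. Of 13 counted type 1 genes, none was higher and 2 were lower on day 1. On day 7, 4 were higher and none lower, namely Tlr4 (3.94), Tlr2 (3.82), Tnf (2.79) and Irf5 (2.16), with a median log2 ratio of 0.72. Ifng stood at 0.806 (0.525 to 1.21), and its level in the T cell gate was 58.4 (35.2 to 91.2) in control and 173 (74.8 to 341) on day 7.

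The alternative activation list, which holds no member, split on day 7. Of 16 counted genes 5 were higher, Retnlg, the ligand gene Pdcd1lg2 at 5.43 (3.4 to 8.85), the transglutaminase Tgm2 at 3.98 (3.69 to 4.28), Ccl24 at 2.38 (2.17 to 2.61) and the scavenger receptor Msr1 at 2.06 (1.92 to 2.20), of which Retnlg is a neutrophil gene. The 4 lower genes were Mrc1 at 0.267 (0.240 to 0.296), the haemoglobin receptor Cd163 at 0.304, the lectin Mgl2 at 0.374 and Ccl8. The list median was -0.21, as was that of all genes. Cd163 is a marker of the Kupffer gate, and the Kupffer and endothelial gates were smaller on day 7. Mrc1 was also lower within these gates, at 1419 and 780 in the endothelial gate and at 870 and 509 in the Kupffer gate, in control and on day 7. The part of composition in the library ratios of Mrc1 and Cd163 was not tested. On day 1, 1 of 15 counted genes was higher and 5 were lower.

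The classical activation list had 7 higher and 3 lower of 13 counted genes on day 7, with a median log2 ratio of 1.08, and none higher and 3 lower of 12 on day 1. The prostaglandin synthase Ptgs2 stood at 20.2 (14.3 to 29.5), Il1b at 13.5 (12.6 to 14.4), Irg1, the itaconate synthase, at 11.5 (9.68 to 13.7), the costimulatory ligand Cd80 at 8.51, the chemokine Cxcl10 at 4.16, Socs3 at 4.03 and Sod2 at 2.11. Cxcl9, Il12b and the receptor Marco were lower at 0.0901, 0.194 and 0.482. Marco is a marker of the Kupffer gate, which had 1578 barcodes in control and 166 on day 7. Il12b was among the 10 leading genes of the cDC gate, which had 219 and 16. The part of composition in these values was not tested. On day 7 Il1b and Irg1 stood at 3333 and 498 CPM in the neutrophil gate, whereas in the Ccl2 gate, where Arg1 was highest, they stood at 916 and 123.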

How the data were processed

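Per the submitters' processing notes reads were aligned with STAR 2.5.2a, and the deposited values are whole-number UMI counts per gene and cell barcode, made by the authors, with 1 matrix for each of 3 libraries. Those notes name hg19, a human build, for these mouse libraries, so that the mouse build behind the counts is not established here. Barcodes with fewer than 200 detected genes were left out. UMIs were summed over each library and over gates from 129 markers of 17 classes, and divided by the total UMIs. Python 3.11.15 was used with numpy 2.4.6, scipy 1.17.1, pandas 2.3.3 and matplotlib 3.10.9. Levels have exact Poisson, shares exact Clopper-Pearson and ratios conditional binomial 95% intervals. These cover counting error only, and with 1 library per condition no test was made. A count of 0 was set to a floor of 3 UMIs for a bound. The counting was tested on simulated data. The members and gene lists were chosen with earlier results of these data known. Of each list, the genes past the fold on day 7 and those with most UMIs could be named, and Ass1, Asl, Odc1, Stat6, Ifng, Il4 and all genes named beside Retnla barcodes or Arg1 bins were chosen after their values were seen. Alternatives changed the barcode filters, gates, depth and fold. Promoters came from RefSeq, build GRCm38.p6.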

Additional observations from a re-analysis of the deposited data

Results flagged for a closer look

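Chi3l3 differed from control in opposite directions in the injured libraries, with a ratio of 0.149 on day 1 and of 14.6 on day 7. With 1 library per condition this difference was not tested. The monocyte gate, which held most Chi3l3 in control, had 15.7%, 1.21% and 23.2% of barcodes in control, on day 1 and on day 7.

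Barcodes with fewer than 200 detected genes, which entered no comparison, also held members, in part above their level in such barcodes of control. Arg1 was at 267 CPM in them on day 1 and at 2859 on day 7, against 47.6 in control. Nos2 was at 18.4 on day 7 against 0.495 in control, and Chi3l3 at 530 on day 7 against 41.1 in control. Other values of such barcodes were not above control, with Chi3l3 at 6.92 and Nos2 at 0.407 on day 1, and Retnla at 3.96 in control, 0.815 on day 1 and 0 on day 7. These differences were not tested.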

How the results depend on the processing

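With 1 library per condition no library could be left out, and no paired analysis was possible because no group has more than 1 sample. Of 120 values recomputed under alternatives for the main results, 88 stayed within the counting interval of the value reported, 31 moved outside it and 1 changed direction, the cause of which was not tested. That was the ratio of Retnla on day 7, at 2.17 among barcodes with at least 500 genes, where it was 0.205 on day 1. The same filter gave 25.8 for Arg1 on day 7, 0.309 and 28.5 for Chi3l3 on days 1 and 7, 2.42 and 9.61 for Arg1 in the Ccl2 gate over the monocyte and endothelial gates, and 56.4% for Arg1 among barcodes with Chi3l3. With every barcode these were 13.3 for Chi3l3 on day 7 and 43.7% for the share. With at most 20% mitochondrial UMIs Arg1 was at 31.9 on day 7 and Chi3l3 at 0.204 and 16.7, and without mitochondrial UMIs they were at 35.5 and 12.1 on day 7. Without the 5% of barcodes with most UMIs Arg1 was at 2.48 and 59.7 and Chi3l3 at 12.99 on day 7. Without the 1 in 4 barcodes with most hepatocyte markers Arg1 was at 1.51 and 48.8. Without barcodes found in 2 libraries, chosen after seeing the data, it was at 2.42 and 49.5. Requiring 3 markers gave 2.95 for Arg1 in the Ccl2 over the monocyte gate and 2.10 for Chi3l3 in the reverse ratio. Barcodes with no marker of another class, also chosen after seeing the data, gave 3.90 and 1.38 for these, and 25.1 for Arg1 in the Ccl2 over the endothelial gate. In the monocyte gate alone Arg1 was found in 92.9% of barcodes with Nos2, in 43.6% with Chi3l3 and in 100% with Retnla, which was 1 barcode. Over all barcodes thinned to 300 UMIs it was found in 39.2% with Chi3l3. At a fold of 3, 5 rather than 14 list genes were lower on day 1. Nos2 gave no ratio to control with at least 500 genes, since control then had 0 UMIs. Depth limited Nos2 and Retnla most, with 89 and 101 UMIs in all.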

Other observations

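Some list genes were higher on day 7 within several gates. Tgm2, a transglutaminase, was at 323 CPM (295 to 353) in the Kupffer gate of control and at 50.9 (21.97 to 100) in the neutrophil gate, and on day 7 at 573 (448 to 721) and 697 (642 to 755). Cxcl10 was at 203 (177 to 233) in the endothelial and 111 (92.0 to 133) in the monocyte gate of control, and on day 7 at 513 (332 to 758) and 641 (586 to 700). Il1b was in the neutrophil gate at 1094 (937 to 1270) in control and 3333 (3212 to 3458) on day 7. Ccl24 was in the Kupffer gate at 480 (446 to 516) in control and 891 (734 to 1072) on day 7, while the Ccl2 gate had 608 (525 to 702) on day 7.

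On day 7 unassigned barcodes held 35.9% of Arg1. Among the 232 of them with at least 10 Arg1 UMIs, Ccl24 was at 826 (686 to 986), Pf4 at 3153 (2873 to 3453) and Ly6c2 at 217 (148 to 306), against 71.1 (46.4 to 104), 262 (213 to 321) and 703 (619 to 794) in the 786 without Arg1.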
